A study of Homo sapiens with 6 samples.

Results

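The genes described here are 10 receptors and SMADs of the TGF-beta superfamily: the type I receptors ACVR1, ACVR1B, BMPR1A and TGFBR1, the type II receptors ACVR2A, BMPR2 and TGFBR2, the signal transducers SMAD2 and SMAD3, and the inhibitory SMAD7. They were selected by platform gene symbol, out of 18849 genes named on the arrays, and every probe bearing one of these symbols was taken. In all 20 probes of 9 genes were found, and BMPR1A, with no named probe, was not analysed here. The set was drawn up with the siSTAT3 against siCon contrast already known, so the differences of these genes are given as a description. Nothing is concluded from a test of them.

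TGF-beta, activin and BMP ligands bring a type II and a type I receptor kinase together, and the type I receptor then phosphorylates SMAD proteins. TGFBR1 and ACVR1B act on SMAD2 and SMAD3, whereas ACVR1 and BMPR1A act on SMAD1, SMAD5 and SMAD9. The phosphorylated SMADs enter the nucleus with SMAD4, while SMAD6 and SMAD7, themselves target genes, feed back on the receptors. In ovarian carcinoma the pathway is known for its effects on growth, mesenchymal traits and matrix production.

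The cells were SKOV3ip1, a human ovarian carcinoma line derived from SKOV3, and 6 samples were profiled, each on 1 single-colour array. The siSTAT3 group (3 samples) had its STAT3, a transcription factor activated by cytokine receptors, knocked down with siRNA, and the siCon group (3 samples) was the siRNA control. Both groups are the same line, and the labels name neither the siRNA sequences nor the time after transfection, nor whether samples were separate cultures, so every error and p-value measures how far these 6 samples vary, possibly for technical reasons alone. Intensities below are quantile-normalised between arrays and means are given ± SD (n = 3 per group). Differences are log2 siSTAT3 minus siCon, with the standard error (SE) of limma's fit over 14145 genes.

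STAT3 itself stood at 23.9% to 32.3% of its siCon intensity on its 3 probes, with no overlap between groups. Of 11 epithelial and ovarian carcinoma markers 9 lay above the 75th percentile of all probes, MUC16 and WT1 being the exceptions, while 0 of 13 measured leukocyte, endothelial and fibroblast markers did. Summed intensity of the epithelial markers was 16761 to 18313 on siSTAT3 arrays and 16670 to 18469 on siCon arrays. Single markers differed without overlap: KRT8 (879 to 1049.7 on siSTAT3 arrays, against 1184 to 1507 on siCon arrays), MSLN (996 to 1074 against 1334 to 1442) and WT1 (89.4 to 90.8 against 96.1 to 108) were lower, and PAX8 (1331 to 1389 against 1221 to 1291) was higher. Their part in the results was not tested. Array siCon 3 stood somewhat apart, with a mean correlation of 0.989 with its group, against 0.991 to 0.995 for the other 5 arrays. The median of all probe means was 93.1. No background was subtracted here, so an intensity near that value may hold little signal from the transcript, and the folds of dim probes may be understated.

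Of the type I receptors, ACVR1 was much lower after STAT3 siRNA and ACVR1B slightly higher. ACVR1, a receptor mainly for BMPs that can also bind activins, had intensities of 528, 550.2 and 519 on siSTAT3 arrays 1 to 3, against 959, 971 and 1073 on siCon arrays 1 to 3. Every siSTAT3 array lay far below every siCon array, and the spread within each group was small. The means were 532 ± 15.98 in siSTAT3 and 1001 ± 62.65 in siCon, a log2 difference of -0.91 ± 0.10 (SE), which left 53.2% of the siCon intensity. By size this was fall number 18 among 14145 genes, STAT3 included. The value lay between -0.94 and -0.86 with any single array left out. This range follows from the small spread within groups and adds no support of its own. ACVR1 was read by 1 probe, ILMN_1760490, so no second probe bears on it. In these bulk cultures, fewer cells carrying a transcript and less of it per cell cannot be told apart.

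ACVR1 lies on the minus strand of chromosome 2, and RefSeq (GRCh38.p14) gives it 3 promoter windows, each covering 250 bases before and 50 after an annotated transcript start and thus the beginning of a first exon. They are shown because ACVR1 had the largest difference of the set. Capitals mark the letters CAGAC, bound by SMAD proteins, and GGCGCC, a GC-rich BMP-responsive element, each searched on both strands.
ACVR1 chr2:157838581-157838880: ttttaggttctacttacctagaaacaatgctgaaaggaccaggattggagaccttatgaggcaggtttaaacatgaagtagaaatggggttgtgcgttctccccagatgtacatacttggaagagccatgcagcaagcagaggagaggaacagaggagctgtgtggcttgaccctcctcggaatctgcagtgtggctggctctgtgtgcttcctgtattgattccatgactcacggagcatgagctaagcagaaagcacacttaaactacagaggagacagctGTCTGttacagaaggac
ACVR1 chr2:157874950-157875249: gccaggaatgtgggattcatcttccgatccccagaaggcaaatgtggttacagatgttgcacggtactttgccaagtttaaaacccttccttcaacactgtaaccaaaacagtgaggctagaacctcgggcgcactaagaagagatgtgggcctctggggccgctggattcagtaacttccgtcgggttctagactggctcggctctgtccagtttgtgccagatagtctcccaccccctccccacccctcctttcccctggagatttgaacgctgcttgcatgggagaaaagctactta
ACVR1 chr2:157876281-157876580: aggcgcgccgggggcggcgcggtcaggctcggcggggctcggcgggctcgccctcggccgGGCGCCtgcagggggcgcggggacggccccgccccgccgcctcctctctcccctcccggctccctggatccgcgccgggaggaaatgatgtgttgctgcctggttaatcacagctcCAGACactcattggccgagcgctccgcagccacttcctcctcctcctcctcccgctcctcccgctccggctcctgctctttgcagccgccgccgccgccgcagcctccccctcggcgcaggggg
The last window, the most upstream, held both motifs, the first held only CAGAC (as its complement), and the second held neither. CAGAC was found in 45.3% and GGCGCC in 19.2% of all 35116 promoter windows, so such matches are common. None of the 3 held TTCNNNGAA, the palindrome bound by STAT dimers, which 7.66% of all windows held.

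ACVR1B, the type I receptor of activins and nodal, had 832, 820.4 and 808 on siSTAT3 arrays, against 727, 782 and 695 on siCon arrays (probe ILMN_2243308). The groups did not overlap, but the gap between them was small: the lowest siSTAT3 array was 808 and the highest siCon array 782. The log2 difference was 0.16 ± 0.10 (SE). Its 3 other probes, annotated partly to other transcripts, had means of 87.3 to 93.6 in both groups, at the level of the median probe, and gave differences of -0.07 to 0.07. TGFBR1, the type I receptor of TGF-beta, was read by 1 probe, which had 83.8, 101.3 and 87.2 on siSTAT3 arrays and 105, 83.7 and 95.8 on siCon arrays. The groups overlapped around the median of all probes, with means of 90.75 ± 9.26 in siSTAT3 and 94.75 ± 10.58 in siCon (-0.06 ± 0.12, and 0.01 without siCon 1).

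Among type II receptors only ACVR2A had groups that did not overlap on the probe used. This receptor of activins and some BMPs had 204, 199.7 and 230.03 on siSTAT3 arrays, against 186, 151 and 187 on siCon arrays (ILMN_2152711), a log2 difference of 0.28 ± 0.12 (SE). All 3 siSTAT3 arrays were higher, though siSTAT3 2 exceeded siCon 3 by little, and the difference was 0.18 without siCon 2, the lowest array. The dimmer second probe averaged 98.8 in siSTAT3 and 105.4 in siCon and went the other way (-0.09), so the mean of both probes gave 0.09.

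BMPR2, the type II receptor of BMPs, varied more among control arrays than between groups. Probe ILMN_1789095 had 669, 798 and 693 on siSTAT3 arrays and 734, 617 and 1007 on siCon arrays. Probe ILMN_2070896 had 594, 592 and 667 on siSTAT3 arrays and 573, 475 and 792 on siCon arrays. On both probes siCon 3 was the brightest of the 6 arrays and siCon 2 the dimmest. The differences were -0.10 ± 0.15 (SE) on the first probe and 0.04 on the second. On the first probe the sign turned with siCon 3 left out (0.09), and the value was -0.26 with siCon 2 left out.

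TGFBR2, which binds TGF-beta and activates TGFBR1, overlapped between groups on its 2 bright probes. ILMN_2384241 had 1349, 1177 and 1447 on siSTAT3 arrays and 1319, 1055 and 1454 on siCon arrays, a log2 difference of 0.06 ± 0.13 (SE). The second bright probe, ILMN_1726245, averaged 668 ± 100.02 in siSTAT3 and 737 ± 102.1 in siCon, with a difference of -0.14. On both probes replicate 2 was the lowest array of each group, and the groups overlapped. The value of the main probe changed sign, to -0.07, without siCon 2, and was -0.01 without siSTAT3 3. Another probe averaged 123 in siSTAT3 and 125 in siCon, and the fourth, below the intensity filter, averaged 87.95 in siSTAT3 and 82.6 in siCon without overlap.

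Of the transducers, SMAD2 was lower on 1 of its probes and SMAD3 nearly equal in the groups. SMAD2 had 191, 147 and 159.7 on siSTAT3 arrays, against 197, 195 and 219.9 on siCon arrays (ILMN_1771203), a log2 difference of -0.31 ± 0.12 (SE). The groups did not overlap, but siSTAT3 1 came within a few units of siCon 1 and 2. The second probe, ILMN_1751036, had 171, 148 and 125 on siSTAT3 arrays and 143, 121 and 166 on siCon arrays. It overlapped throughout (0.04), and the mean of the 2 probes that passed the filter gave -0.13. The dimmest, below the filter, averaged 91.3 in siSTAT3 and 77.4 in siCon with overlap (0.25). SMAD3 had 1274, 1154 and 1217 on siSTAT3 arrays and 1217, 1140.1 and 1209.8 on siCon arrays, a difference of 0.03 ± 0.10 (SE).

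One of the promoter windows of SMAD3, on the plus strand of chromosome 15, is shown because it alone among the 28 windows of the 10 genes held TTCNNNGAA. The letters TTCTAGGAA and a CAGAC complement are in capitals. It is one of 5 SMAD3 windows in the RefSeq table, and 7.66% of all windows held TTCNNNGAA. SMAD3 was among the genes that differed least here. Whether these letters bear on expression was not tested.
SMAD3 chr15:67137771-67138070: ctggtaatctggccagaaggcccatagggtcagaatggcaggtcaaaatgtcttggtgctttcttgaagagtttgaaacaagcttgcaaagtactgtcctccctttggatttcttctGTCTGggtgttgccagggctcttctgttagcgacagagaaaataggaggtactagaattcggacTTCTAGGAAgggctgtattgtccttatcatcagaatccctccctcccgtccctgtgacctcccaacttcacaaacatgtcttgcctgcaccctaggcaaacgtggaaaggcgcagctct

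SMAD7, which recruits ubiquitin ligases to TGF-beta receptors, overlapped between groups on both probes. ILMN_2203891 had 247.5, 287 and 265 on siSTAT3 arrays and 281, 286 and 245 on siCon arrays, a difference of -0.02 ± 0.11 (SE). ILMN_2203896 gave -0.03, with siSTAT3 1 the lowest of the 6 arrays at 166 and siSTAT3 3 the highest at 266.

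**Figure D1:**
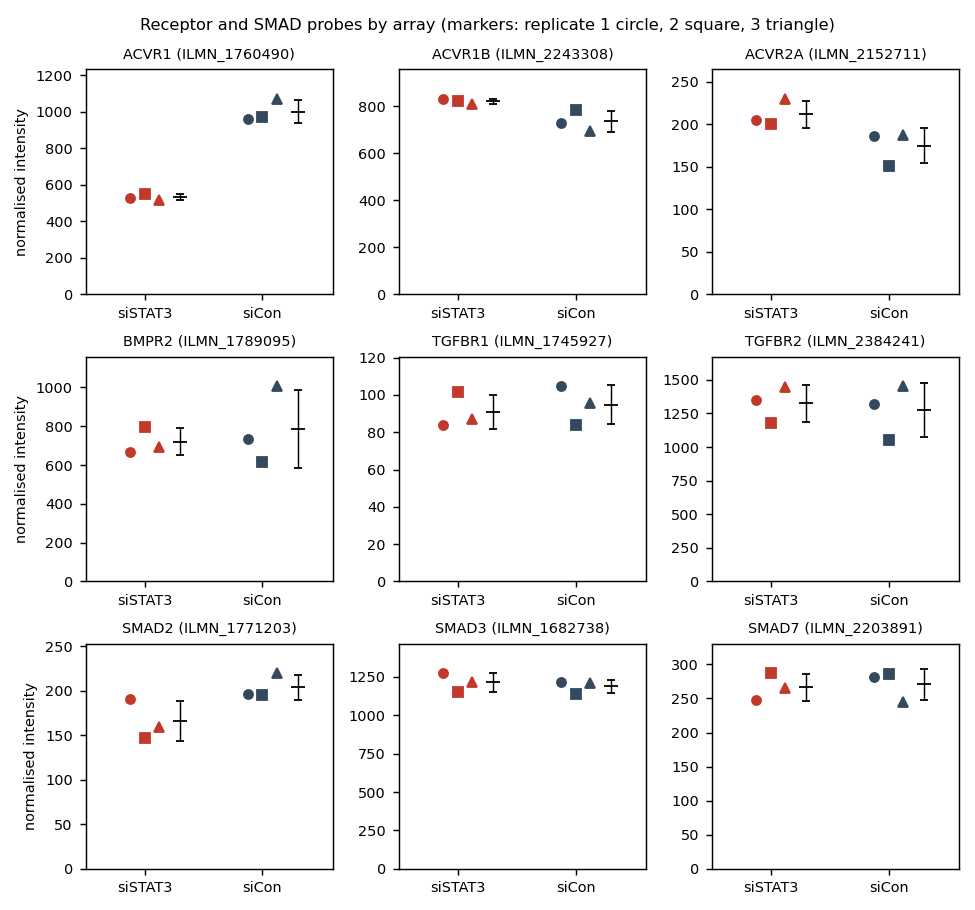
Quantile-normalised intensity (linear axis from 0) of the probe used for each of the 9 measured genes, by group. Each marker is 1 array and the bar beside it is the mean ± SD (n = 3); ACVR1 lies at 519 to 550.2 in siSTAT3 and 959 to 1073 in siCon, while TGFBR1 lies near the median probe.

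Over the 9 measured genes, the median difference was -0.02, against 0.01 over all 14145 genes, and the median size of a difference was 0.10 in both. Intensities of 4 of the 9 did not overlap between groups, ACVR1 and SMAD2 lower and ACVR1B and ACVR2A higher, where the share over all genes was 17.2%. ACVR1 was the 1 of 9 past an adjusted p of 0.05 in limma's fit, where the share over all genes was 1.46%. The set was made from this contrast, so nothing is read from either count. The next genes by size were SMAD2 at -0.31 and ACVR2A at 0.28. The non-overlap of ACVR1B, ACVR2A and SMAD2 was not seen on any other probe of these genes.

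**Figure D2:**
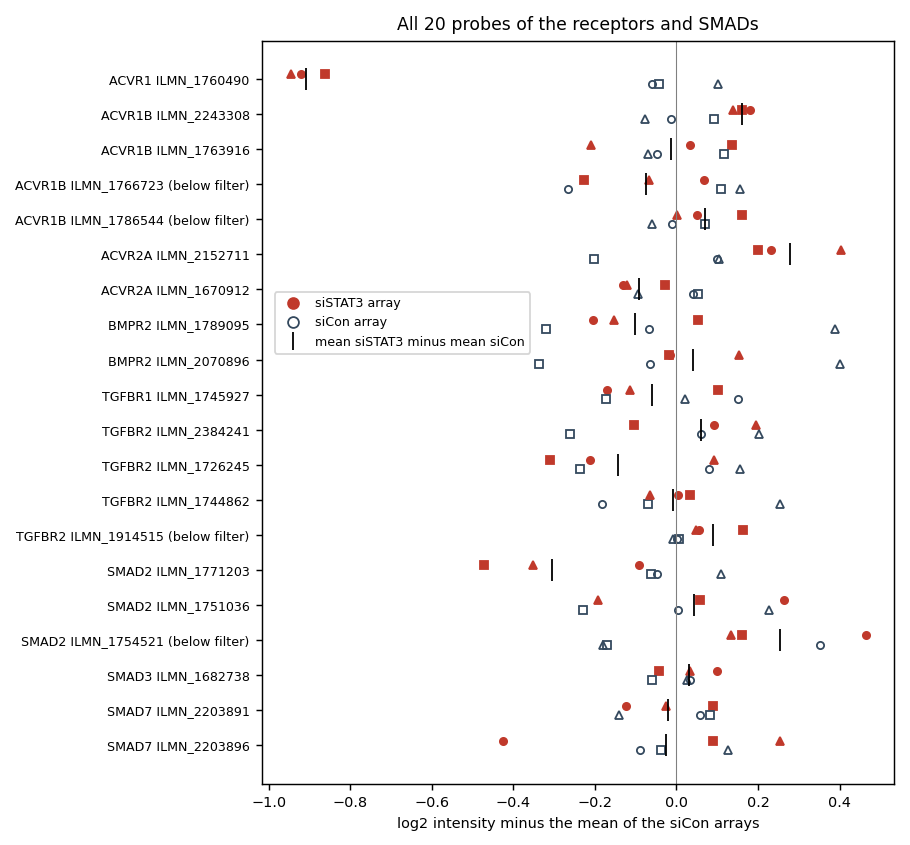
Log2 intensity of every array minus the mean of the siCon arrays, for all 20 probes; filled markers are siSTAT3 arrays, open markers siCon arrays (replicate 1 circle, 2 square, 3 triangle) and the black line is the difference of means. ACVR1 at -0.91 stands apart from all other probes, which lie between -0.31 and 0.28.

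The rest of the pathway was followed through 134 genes in 9 lists, of which 98 were tested, 30 lay below the intensity filter and 6 had no named probe. By limma with Benjamini-Hochberg adjustment 8 were lower and 1 higher in siSTAT3, where the shares over all genes were 1.07% and 0.396%. Over the 98 genes the median difference was -0.07, against 0.01 over all genes, with 61 below 0 and 37 above. Groups did not overlap for 23 lower and 2 higher genes, against shares of 8.56% and 8.63% over all genes. The lists were drawn up with earlier results of these data known, in particular for the TGF-beta target genes.

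Ligand genes often lay below the intensity filter of 89.9, 7 of 14 activin, inhibin, nodal and GDF ligands and 8 of 14 BMP ligands among them. Of 13 genes of TGF-beta and its activation with a probe, 3 lay below it. Over all named genes, 14145 of 18849 passed this filter. TGFB1 averaged 85.9 in siSTAT3 and 78.9 in siCon, and TGFB2, INHBA (an activin subunit) and BMP4 were likewise below it. Of 10 tested genes of TGF-beta and its activation, THBS1, a matrix protein that can activate latent TGF-beta, fell (-0.72 ± 0.15, adjusted p = 0.0249 by limma) and the other 9 did not pass. Over all genes the share that fell past the threshold was 1.07%. The call for THBS1 was lost without siCon 1 or any 1 siSTAT3 array, with adjusted p-values of up to 0.161. ITGAV, an integrin chain of latent TGF-beta activators, gave -0.37 and LTBP3, a latent TGF-beta binding protein, 0.28. None of 7 activin, inhibin, nodal and GDF ligands and none of 6 BMP ligands passed in limma's fit. BMP2 had 245, 233 and 233 on siSTAT3 arrays, against 265, 270.3 and 266 on siCon arrays (-0.17, adjusted p = 0.545 by limma), INHBB gave -0.19, BMP6 0.18, GDF15 -0.17, BMP5 0.12 and MSTN -0.10.

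Among 11 secreted antagonists 1, FSTL3, which binds and neutralises activins, fell, where the share over all genes was 1.07%. It had 572, 566 and 592 on siSTAT3 arrays, against 799, 809 and 727 on siCon arrays (-0.43 ± 0.10, adjusted p = 0.0493 by limma). The groups were well apart, but the adjusted p was at the threshold and passed under 5 of 15 alternatives, reaching 0.22 without siSTAT3 1. NBL1, an antagonist of BMPs, had 2028, 2102 and 2184 on siSTAT3 arrays, against 2407, 2572 and 2215 on siCon arrays (-0.19, not passing). Its other probe averaged 1335 in siSTAT3 and 1388 in siCon, with overlap (-0.05). DCN, a matrix proteoglycan that binds TGF-beta, had means of 92.0 in siSTAT3 and 104 in siCon, close to the median probe.

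None of 6 other receptors and co-receptors passed in limma's fit. BAMBI, a decoy receptor without a kinase, had 1126, 1335 and 1325 on siSTAT3 arrays, against 1925, 1722 and 1324 on siCon arrays (-0.38 ± 0.13, adjusted p = 0.235 by limma). Its siCon 3 array lay within the siSTAT3 range, and without that array the adjusted p was 0.0111. TGFBR3, the co-receptor betaglycan, had 239.6, 234 and 229 on siSTAT3 arrays, against 272, 260.5 and 276 on siCon arrays (-0.20, adjusted p = 0.443), and RGMB, a BMP co-receptor, gave -0.15.

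SMAD6, the inhibitory SMAD of BMP signalling, was the 1 of 5 other SMADs past the threshold, where the share of lower genes over all genes was 1.07%. It had 592, 528 and 536 on siSTAT3 arrays, against 789, 1006 and 772 on siCon arrays. All siSTAT3 arrays were lower, and siCon 2 was the highest. The means were 552 ± 35.0 in siSTAT3 and 856 ± 130.4 in siCon (-0.62 ± 0.12, adjusted p = 0.0147 by limma). The call held under 12 of 15 alternatives and was lost without any 1 siSTAT3 array, with adjusted p-values of up to 0.12. SMAD4, the shared partner, averaged 2427 ± 92.3 in siSTAT3 and 2397 ± 414 in siCon (0.03 ± 0.12). SMAD5, a BMP transducer, averaged 2282 ± 89.7 in siSTAT3 and 2600 ± 238 in siCon, without overlap (-0.18, adjusted p = 0.548), and its dimmer probes gave -0.07. SMAD1 was close to the median probe (-0.11) and SMAD9 gave 0.16.

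**Figure D3:**
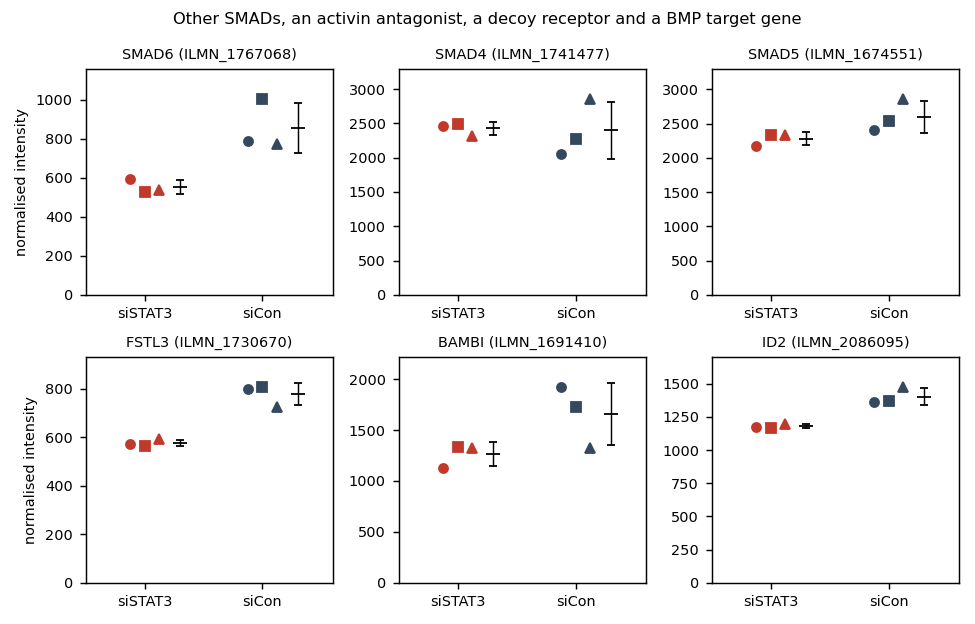
Quantile-normalised intensity (linear axis from 0) by group for 6 further pathway genes; each marker is 1 array (replicate 1 circle, 2 square, 3 triangle) and the bar is the mean ± SD (n = 3). SMAD6 and FSTL3 passed limma's threshold, and SMAD4, SMAD5, BAMBI and ID2 did not.

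None of 27 regulators of receptors and SMADs passed in limma's fit. PMEPA1, an inhibitor of SMAD2 and SMAD3 activation and a TGF-beta target, was lower on its bright probes, at -0.35 (adjusted p = 0.186) and -0.50, without overlap on either. Its dimmer probes overlapped between groups (0.04 and -0.10). The mean of its probes gave -0.23 (adjusted p = 0.398 by limma). CAV1, a caveolar protein that takes part in receptor uptake, gave -0.34, the ubiquitin ligase SMURF2 -0.19, and the corepressor SKIL -0.11. Among 22 TGF-beta target genes 6 fell and 1 rose, where the shares over all genes were 1.07% and 0.396%, and this list was drawn up with these results known. COL4A1, SNAI2, THBS1, CCN2, CCN1 and TGFBI fell by 0.51 to 1.09 on the log2 scale (adjusted p = 0.000125 to 0.0482), and TAGLN rose by 0.65 (adjusted p = 0.00596). A dimmer TAGLN probe gave 0.39, and another, below the intensity filter, went the other way without overlap (-0.22). COL4A1 and SNAI2 passed under each of 15 alternatives, CCN2 under 11, TGFBI under 10 and CCN1 under 7. CCN2, TGFBI and CCN1 lost their calls without siCon 1 or any 1 siSTAT3 array, with adjusted p-values of up to 0.089 for CCN2, 0.136 for TGFBI and 0.258 for CCN1. CCN1 lost it also without siCon 2 (0.0578), and TAGLN lost its call without siSTAT3 3. The median of the list was -0.03, with 12 genes below 0 and 10 above, and CDKN1A and CDKN2B, growth-arrest targets chosen after their values were seen, gave 0.02 and 0.05.

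Of 10 BMP target genes 8 were below 0, with a median of -0.23, and 1, SMAD6, fell past the threshold. The share of genes falling past it was 1.07% over all genes. ID2, a dimerisation partner that blocks basic helix-loop-helix factors, had 1172, 1169 and 1197 on siSTAT3 arrays, against 1359, 1371 and 1478 on siCon arrays. The groups did not overlap (-0.25, adjusted p = 0.321 by limma), while its other probe gave -0.06. ID1 averaged 6543 ± 268 in siSTAT3 and 6268 ± 892 in siCon (0.07), and its dimmer probe gave -0.20. The groups did not overlap for 3 of the 10 genes, all lower, where the share over all genes was 8.56%. These were SMAD6, ID2 and MSX2, the last named after its values were seen.

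**Figure D4:**
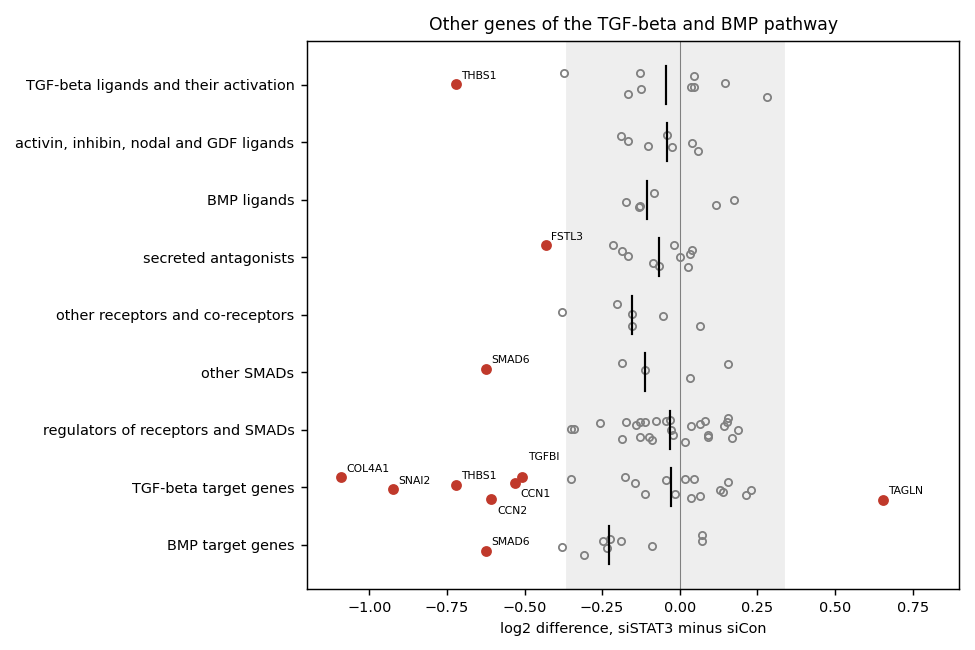
Log2 difference, siSTAT3 minus siCon, of each tested gene in 9 lists (1 point a gene; filled points have an adjusted p under 0.05 by limma; vertical offsets within a row only separate the points). Black lines are list medians, which run from -0.23 for BMP target genes to -0.03, and the grey band spans the 2.5th to 97.5th percentile of all genes (-0.36 to 0.34); BAMBI, ITGB6, PMEPA1, SKIL, SMAD6 and THBS1 are in 2 lists each.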

How the data were processed

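RNA of 6 samples was labelled with biotin and hybridised to Illumina bead arrays, per the labels' protocols. The authors deposited unnormalised probe intensity and processed intensity, and BeadStudio is named without a version in the submitters' processing notes. No detection p-values were used here, and nothing in the sources used here gives a background subtraction by the authors. Unnormalised intensities were quantile-normalised and taken to log2 (limma 3.58.1, R 4.3.3). Probes above the 40th percentile of geometric mean intensity (89.9) were kept, and a gene was represented by its brightest probe, which left 14145 genes. Of 48803 probes 28098 had 1 symbol, 13 several and 20692 none, and symbols were updated through RefSeq (28059 by Entrez ID, 14 by accession, 25 kept). Groups, taken from sample titles, were compared by limma's two-sided moderated test (lmFit, eBayes), with a Benjamini-Hochberg threshold of 0.05 over all genes.

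The 10 genes and the lists were chosen with earlier results of these data known. Named are those 10, STAT3, every list gene past the threshold, the 3 of smallest p in lists with fewer than 3, and SMAD4, SMAD1, SMAD5, TGFB1, TGFB2, INHBA, BMP4, TGFBR3, BAMBI, SKIL and ID1 where probes exist. A further gene of this rule is not reported here. The procedure was tested on simulated data. Of 100 genes changed by a log2 of 0.5 it recovered 39, with 2 false calls. Of 100 changed by a log2 of 1 it recovered 94, with 2 false calls. A gene that did not pass may thus still differ, above all by a small amount. Alternatives were median scaling, the processed values, normexp with an offset of 50, no filter, a 60th percentile filter, averaging a gene's probes, robust variance with an intensity trend, weighting the arrays, blocking on replicate number, and each array left out.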

Additional observations from a re-analysis of the deposited data

How the results depend on the processing

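The count of all changed genes was 207, against 437 with array weights, and 61 to 407 with 1 array left out. Pathway genes lower in siSTAT3 numbered 8, against 5 under median scaling, where FSTL3, TGFBI and CCN1 lost their calls, and 2 to 10 with 1 array left out (2 without any 1 siSTAT3 array, 3 without siCon 1). Pathway genes higher numbered 1, against 0 to 1 with 1 array left out, TAGLN being lost without siSTAT3 3 (adjusted p = 0.0678). The lower share of all calls was 72.9%, 61.8% with array weights and 62.9% to 93.4% with 1 array left out. The median difference of the receptors and SMADs moved by less than the spread between replicates, between -0.08 and 0.04 with 1 array left out. Of 134 single-gene differences of receptors and SMADs under alternatives 131 stayed within that spread, and those of ACVR1B (0.07), ACVR2A (0.09) and SMAD2 (-0.13) did not when a gene's probes were averaged. For most alternatives this was fixed beforehand, so the count is no measure of stability. Leaving out 1 of 3 arrays cannot move a gene's difference beyond its spread. The filter settings, the variance trend and the replicate block do not alter the difference. TGFBR1 had no value with the 60th percentile filter. Of 477 adjusted p-values of named pathway genes, 35 lost and 2 gained a call (both BAMBI, with array weights or without siCon 3). Only the 8 lower and 1 higher genes had a call to lose, each under 15 alternatives. The share of 477 thus understates how often their calls were lost. Same-numbered arrays of the groups deviated together with correlations of 0.04, 0.14 and 0.07. These were weak, although each array correlated best with its own number, and they do not settle whether the samples were paired. With the replicate block 283 genes changed, 183 lower and 100 higher, and 7 pathway genes were lower and 1 higher. The number of arrays and the lack of a background measure limit what can be said of TGFBR1, SMAD1 and most ligands.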
